A study of Mus musculus with 6 samples.

Results

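The 49 genes described here encode the ligands, receptors, Smad proteins, direct targets and inhibitors of the TGF-beta and BMP pathway. They were chosen by gene symbol, and all 49 had a row of their own among the 54532 genes of the table and enough counts to be tested, as had 17108 genes in all. RNA had been sequenced from the retina of C57BL/6J mice of wild-type genotype on day 17 after birth, in 3 samples labelled OIR and 3 labelled normal. OIR usually stands for oxygen-induced retinopathy, a model in which high oxygen stops vessel growth in the retina of the pup, and room air afterwards leaves it short of oxygen, with new vessels forming in disorder. No source used here gives the oxygen schedule. Whether each sample came from its own animal is not labelled, so p-values reflect the spread between these libraries, part of which may be technical.

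As background, TGF-beta, activin and BMP ligands bind pairs of type I and type II receptor kinases. TGF-beta and activin receptors mainly phosphorylate Smad2 and Smad3, and BMP receptors Smad1, Smad5 and Smad9, which then enter the nucleus with Smad4. In endothelial cells the type I receptor ALK1, encoded by Acvrl1, and the co-receptor endoglin, encoded by Eng, carry signals of circulating BMPs, and loss of either gene causes vascular malformations. TGF-beta is also a classical inducer of endothelial-to-mesenchymal transition, the process the series is titled for, in which vessel-lining cells take on features of mesenchyme.

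Depth was 15818168 to 17163513 counts per library, of which the 49 genes together held 31369 to 37933. The libraries carried the RNA of a retina, with summed CPM (counts scaled to the TMM-adjusted library total) of 9 rod genes of 41570 to 45670 in OIR and 49070 to 52470 in normal libraries. Lens RNA differed between libraries: 8 lens genes summed to 5292 CPM in OIR 3, against 71.7 and 317 CPM in the other OIR libraries and 6.54 to 326 CPM in normal libraries. By Xist and Y-linked transcripts, 1 OIR and 2 normal libraries came from males, and 2 OIR and 1 normal library from females, so each group holds material of at least 2 animals.

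In OIR retina 13 of the 49 genes were higher and 4 were lower by the quasi-likelihood test of edgeR (adjusted p under 0.05). That is 26.5% higher and 8.16% lower, against 11.1% and 8.73% of all genes tested. The 49 genes were chosen with earlier results of these data known, so these shares describe the list and are not a test of it. The genes that rose were Tgfb1, Tgfb2, Acvrl1, Bmpr1b, Tgfbr2, Acvr2b, Eng, Smad1, Smad7, Id1, Fstl1, Fstl3 and Tgif1, and those that fell were Bmp7, Ltbp2, Smad9 and Id2. OIR and normal libraries did not overlap in 26 of the 49 genes, or 53.1%, against 36.8% of all genes tested. OIR was above in 20 of them and below in 6, against 18.7% and 18.1% of all genes tested. The median log2 change was 0.13 over the 49 genes and 0.013 over all genes tested. Leaving out OIR 2 reduced the genes called to 8 higher and 3 lower, and leaving out OIR 3, the library with the most lens RNA, to 12 higher and 4 lower. In a comparison of 3 samples with 3, an exact permutation test of a single gene cannot go below p = 0.1.

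**Figure D1:**
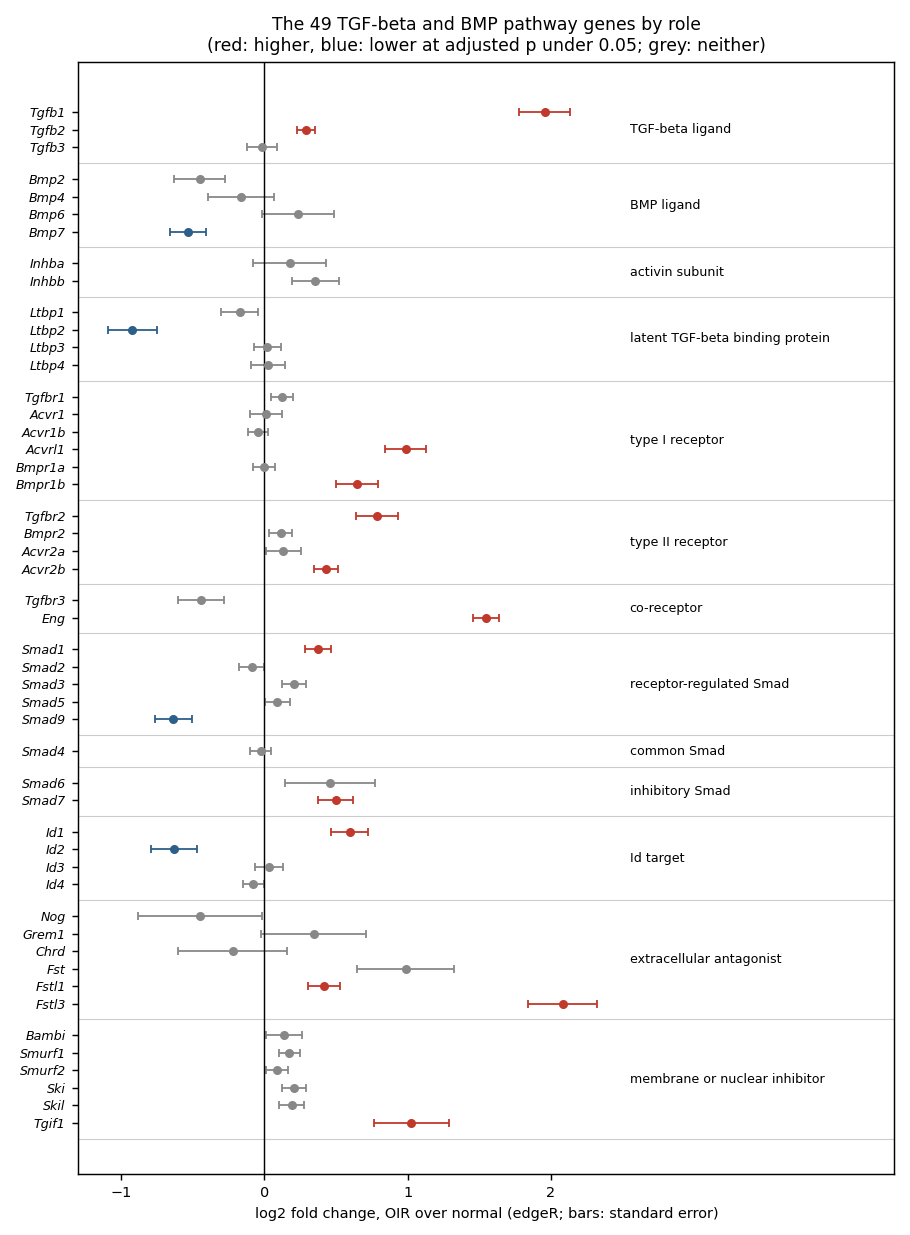
Log2 fold change of OIR over normal retina for each of the 49 genes, grouped by role, with the standard error of the edgeR fit as bars. Fstl3, Tgfb1 and Eng lie farthest to the right, at 2.08, 1.96 and 1.55, and Ltbp2 farthest to the left, at −0.92.

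The promoter sequence of the 3 genes with the largest rises, and of 2 genes that fell, is printed here because it is the stretch in which a hypoxia-responsive or Smad-bound element could be read directly. Each is the 250 bases before the RefSeq transcription start (GRCm38.p6, which is mm10), written 5′ to 3′ on the gene's strand. Capitals mark ACGTG (the core of the site bound by hypoxia-inducible factors), CAGAC (the Smad box) and GGCGCC (a GC-rich element bound by BMP Smads), each searched on both strands, so CACGT and GTCTG count as well. No 2 matches overlapped in the sequences printed. The RefSeq start lay 0 to 41 bases from the gene start of the count table for these 5 genes.
Tgfb1 (chr7:25686752-25687001, plus strand): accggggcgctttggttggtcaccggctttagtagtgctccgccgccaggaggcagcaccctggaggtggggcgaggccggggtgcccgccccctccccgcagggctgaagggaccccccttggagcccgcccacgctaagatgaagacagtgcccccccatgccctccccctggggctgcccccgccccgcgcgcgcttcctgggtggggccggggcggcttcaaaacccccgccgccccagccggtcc
Eng (chr2:32646345-32646594, plus strand): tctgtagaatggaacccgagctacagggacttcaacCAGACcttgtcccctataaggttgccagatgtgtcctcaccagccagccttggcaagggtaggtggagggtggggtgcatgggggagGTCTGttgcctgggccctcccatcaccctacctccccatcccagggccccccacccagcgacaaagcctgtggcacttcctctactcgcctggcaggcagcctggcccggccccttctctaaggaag
Fstl3 (chr10:79777024-79777273, plus strand): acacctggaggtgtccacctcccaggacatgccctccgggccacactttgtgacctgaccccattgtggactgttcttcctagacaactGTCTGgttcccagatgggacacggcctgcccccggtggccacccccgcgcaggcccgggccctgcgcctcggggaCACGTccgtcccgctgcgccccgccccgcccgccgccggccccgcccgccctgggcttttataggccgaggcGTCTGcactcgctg
Ltbp2 (chr12:84876492-84876741, minus strand): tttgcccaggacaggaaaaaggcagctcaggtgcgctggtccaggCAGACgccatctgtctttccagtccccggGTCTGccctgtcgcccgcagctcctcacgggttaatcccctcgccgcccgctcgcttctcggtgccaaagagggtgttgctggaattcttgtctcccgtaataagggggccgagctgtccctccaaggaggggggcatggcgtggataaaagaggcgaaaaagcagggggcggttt
Smad9 (chr3:54755332-54755581, plus strand): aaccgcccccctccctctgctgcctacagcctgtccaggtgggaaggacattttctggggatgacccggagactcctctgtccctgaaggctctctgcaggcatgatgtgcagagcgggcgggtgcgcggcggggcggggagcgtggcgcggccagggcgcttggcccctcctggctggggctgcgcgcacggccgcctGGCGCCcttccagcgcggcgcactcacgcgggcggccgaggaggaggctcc

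The Fstl3 stretch held 1 hypoxia core and 2 Smad boxes, the Eng and Ltbp2 stretches 2 Smad boxes each, the Smad9 stretch 1 GC-rich element, and the Tgfb1 stretch held no match to these letters. Of the 36 genes with a RefSeq entry in the table used, with 48 stretches in all, 20.8% of stretches held the hypoxia core, 45.8% the Smad box and 27.1% the GC-rich element. Over all 32851 promoter stretches of the same length the shares were 16.6%, 42.2% and 9.59%. By gene, 9 of the 36 held the hypoxia core, 18 the Smad box and 12 the GC-rich element in at least 1 stretch. A gene with several stretches has more places for a match. No share by gene was computed over all genes, so the counts by gene here and below have no like background. Among the genes with an entry, the hypoxia core was found in 3 of 10 that rose and 0 of 3 that fell, the Smad box in 7 of 10 and 1 of 3, and the GC-rich element in 0 of 10 and 2 of 3. A match is a description of the letters and not a binding site.

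Among the TGF-beta ligands, Tgfb1 showed the larger rise and Tgfb2 remained the most abundant. Tgfb1 (ENSMUSG00000002603, chromosome 7, 25687002 to 25705077, plus strand, mm10), the isoform made by many immune and vascular cells, had 18.2, 18.6 and 15.8 CPM in the OIR libraries, against 5.81, 4.01 and 3.67 CPM in the normal libraries. Every OIR value lay more than 2-fold above every normal value. It rose 3.89-fold, by 1.96 on the log2 scale (SE 0.18, edgeR adjusted p = 3.78e-05), and it ranged from 1.83 to 2.19 when any single library was left out. Tgfb2, the main isoform of neural retina and eye fluids, had 148, 151 and 152 CPM in OIR and 124, 119 and 126 CPM in normal libraries. Here the groups did not overlap either, but the rise was small, 0.29 on the log2 scale (SE 0.063, edgeR adjusted p = 0.00836), and it missed the threshold without OIR 2 (0.28, adjusted p = 0.0544). Tgfb3 had a log2 change of −0.018 and overlapping groups.

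Levels of different genes were compared per length, as RPKM computed from the TMM-scaled counts and the deposited gene lengths. In OIR retina Tgfb2 had 25.9 ± 0.385, Tgfb3 9.29 ± 0.793 and Tgfb1 3.48 ± 0.300 RPKM (SD, n = 3), and in normal retina they had 21.2 ± 0.614, 9.40 ± 0.978 and 0.892 ± 0.228 RPKM. The order of the isoforms was thus the same in both groups, with gaps larger than the spread between libraries. Tgfb1 made up 8.98 ± 0.724% of the summed RPKM of the 3 isoforms in OIR libraries and 2.82 ± 0.651% in normal libraries, while the share of Tgfb2 was 67.0 ± 1.59% and 67.4 ± 2.90%.

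Of the 4 BMP ligands 1 fell. Bmp7, which supports eye development and retinal neuron survival, had 19.1, 17 and 20 CPM in OIR libraries, against 30.9, 23.3 and 27.1 CPM in normal libraries. All OIR values were below all normal values, with a log2 change of −0.53 (SE 0.12, edgeR adjusted p = 0.0121). Bmp2, a ligand close to Bmp4, also lay below normal in every OIR library, at 3.94 to 4.66 CPM against 5.35 to 6.29 CPM, but did not pass (log2 change −0.45, edgeR adjusted p = 0.103). Bmp4 and Bmp6 had log2 changes of −0.16 and 0.24 with overlapping groups. Per length, Bmp7 was the highest of the 4 in both groups, with 4.65 ± 0.375 RPKM in OIR and 6.74 ± 0.941 RPKM in normal libraries. Beside these values, 5 of 6 pigment epithelium markers were lower in OIR retina, with summed CPM of 105 to 120 in OIR and 192 to 325 in normal libraries, and the part of pigment epithelium RNA in the fall of Bmp7 was not tested.

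The activin subunits stayed below the threshold. Inhbb, the subunit of activin B, had 9.49, 11.6 and 10.5 CPM in OIR and 9.95, 7.24 and 7.46 CPM in normal libraries. Normal 1 lay inside the OIR range, and the log2 change was 0.36 (edgeR adjusted p = 0.156), or 0.52 without Normal 1, where it passed (adjusted p = 0.0396). Inhba, the subunit of activin A, was lower in level and had a log2 change of 0.18.

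The latent TGF-beta binding proteins, which tether the inactive ligand to the matrix, were changed in 1 of 4 cases. Ltbp2, the member of the family that does not itself bind latent TGF-beta and that belongs to the ciliary zonule and elastic matrix, had 7.48, 10.2 and 7.17 CPM in OIR libraries, against 18.3, 13.1 and 15.7 CPM in normal libraries. The groups were apart, and the fall of 0.92 on the log2 scale (SE 0.17, edgeR adjusted p = 0.00406) was the largest among the 49 genes. Without single libraries the change lay between −1.11 and −0.80. The summed CPM of the pigment epithelium markers was 112, 120 and 105 in OIR and 325, 192 and 241 in normal libraries. The part of pigment epithelium RNA in the fall of Ltbp2 was not tested. Ltbp3 and Ltbp4, which were the most abundant of the family per length (12.1 ± 0.852 and 6.72 ± 1.23 RPKM in OIR, 12 ± 1.27 and 6.59 ± 0.190 RPKM in normal retina, SD, n = 3), had log2 changes of 0.020 and 0.027. Ltbp1 had a log2 change of −0.17.

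**Figure D2:**
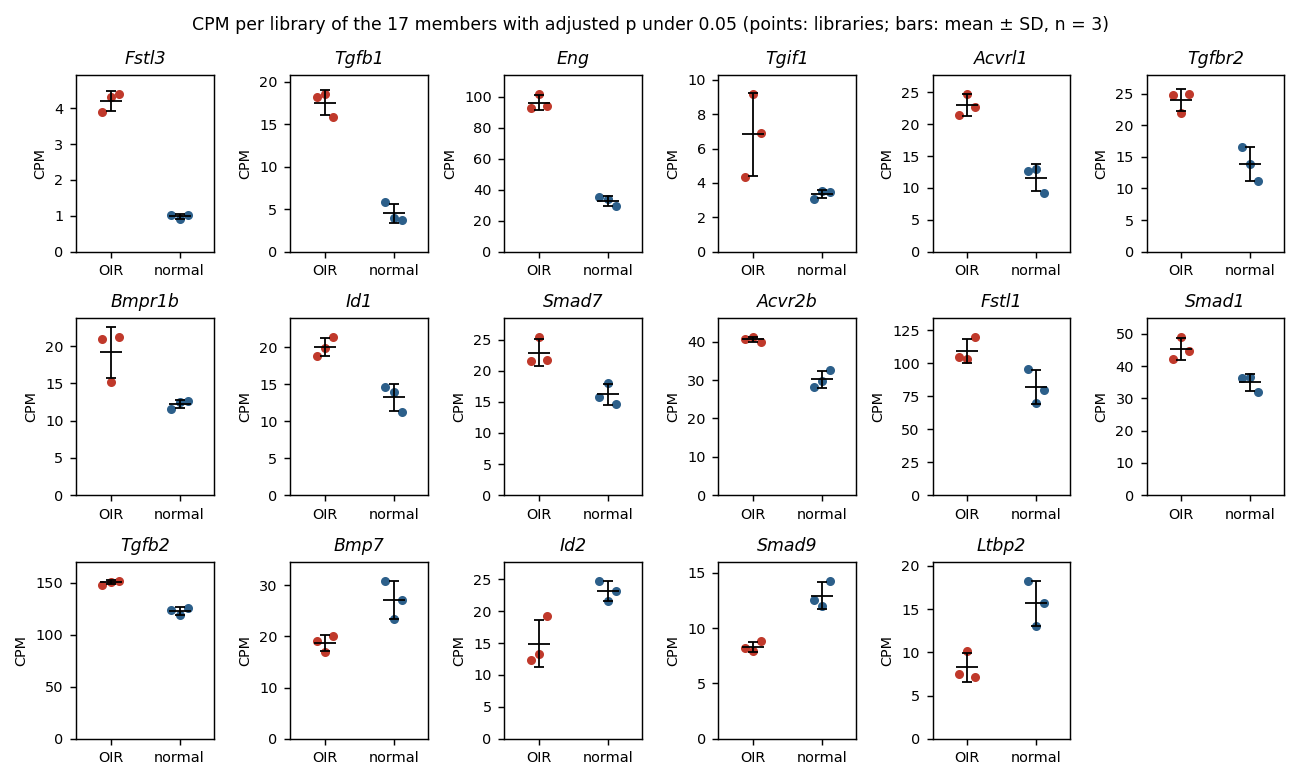
CPM in each library of the 17 genes that passed the test, ordered from the largest rise to the largest fall, with OIR left of normal in each panel and bars for the mean ± SD of 3 libraries. In every panel the OIR and normal points are separate, most widely for Fstl3, Tgfb1 and Eng.

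Of the 6 type I receptors, 2 rose. Acvrl1, which encodes the endothelial receptor ALK1, had 21.5, 24.8 and 22.7 CPM in OIR and 12.6, 13.0 and 9.20 CPM in normal libraries. That is a 1.98-fold rise (log2 change 0.99, SE 0.14, edgeR adjusted p = 0.00086), with every OIR library above every normal one. Bmpr1b, a type I receptor for BMPs, had 21.0, 15.2 and 21.2 CPM in OIR and 11.6, 12.5 and 12.6 CPM in normal libraries. OIR 2 was the lowest of its group, and the log2 change of 0.65 (SE 0.15, edgeR adjusted p = 0.0104) became 0.57 without OIR 1 and then missed the threshold (adjusted p = 0.0526). The type I receptors for TGF-beta, Tgfbr1, and for activin, Acvr1b, and the BMP receptors Acvr1 and Bmpr1a had log2 changes of 0.12, −0.047, 0.012 and −0.00060, all short of the threshold. Per length Acvr1b and Bmpr1a were the most abundant of the 6, with 33.0 ± 0.879 and 24.6 ± 0.877 RPKM in OIR and 34.1 ± 2.10 and 24.6 ± 2.25 RPKM in normal retina (SD, n = 3), so the type I receptors that rose were not those with the highest levels.

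Type II receptors rose in 2 of 4 cases. Tgfbr2, the ligand-binding receptor for TGF-beta, had 24.8, 21.9 and 25.0 CPM in OIR libraries and 16.5, 13.9 and 11.1 CPM in normal libraries, a log2 change of 0.79 (SE 0.15, edgeR adjusted p = 0.00359). Acvr2b, a receptor for activins and some BMPs, had 40.8, 41.2 and 39.8 CPM in OIR and 28.2, 29.7 and 32.6 CPM in normal libraries, a log2 change of 0.43 (SE 0.083, edgeR adjusted p = 0.00463). In both genes all OIR libraries were above all normal ones. Bmpr2, the main BMP type II receptor, had 183 to 185 CPM in OIR and 148, 182 and 181 CPM in normal libraries, so that the groups were apart by a narrow margin with Normal 1 well below the rest, and it did not pass (log2 change 0.11). Acvr2a had a log2 change of 0.13 and overlapping groups.

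The co-receptors lay on opposite sides of 0. Eng (ENSMUSG00000026814, chromosome 2, 32646595 to 32682669, plus strand, mm10), which encodes the endothelial co-receptor endoglin, had 92.6, 102 and 93.9 CPM in OIR libraries, against 35.1, 34.2 and 29.2 CPM in normal libraries. The lowest OIR value was more than 2-fold above the highest normal value, and the log2 change was 1.55 (SE 0.090). Its edgeR adjusted p was the smallest of the 49 genes, and the change stayed between 1.47 and 1.60 without any single library. Eng overlaps Fpgs on the other strand, a gene with 958 counts in all libraries against 6499 for Eng, and without strand information reads of the overlap cannot be assigned. Tgfbr3, which encodes betaglycan, a co-receptor that presents TGF-beta to Tgfbr2, had 7.78, 8.85 and 6.88 CPM in OIR and 9.53, 9.91 and 12.6 CPM in normal libraries. Its OIR values were all lower, but the gene did not pass (log2 change −0.45, edgeR adjusted p = 0.079).

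In a whole retina, fewer or more cells of a type and less or more RNA per cell cannot be told apart. Over the same libraries, 10 of 12 endothelial markers rose, with a median log2 change of 1.27 and summed CPM of 621 to 710 in OIR and 410 to 478 in normal libraries. Of 9 pericyte and mural markers 8 rose (median 1.33, summed CPM of 673 to 766 in OIR and 261 to 298 in normal libraries), and of 9 microglia and macrophage markers 5 rose (median 1.06, summed CPM of 96.0 to 132 in OIR and 46.7 to 59.8 in normal libraries). The endothelial receptor genes Kdr and Tek were the endothelial markers that did not rise (0.0055 and −0.37 on the log2 scale), and every listed endothelial, mural and microglial marker had counts. Other lists moved in the same libraries. Of 6 astrocyte markers 3 rose and 1 fell, with summed CPM of 308 to 390 in OIR and 74.2 to 85.1 in normal libraries. Most of the OIR sum came from Gfap, an intermediate filament gene that reactive Müller glia also express (11.8-fold higher in OIR). Gfap had 213 to 299 CPM in OIR and 20.6 to 24.4 CPM in normal libraries. Of 5 erythroid markers 4 rose, with summed CPM of 175 to 210 in OIR and 60.2 to 90.3 in normal libraries. Of 5 stromal fibroblast markers tested 3 rose and 1 fell, with summed CPM of 90 to 102 in OIR and 45.2 to 46.8 in normal libraries. Pdgfra stood in both the astrocyte and the stromal list and counts among the rising genes of each. It had 41.3 to 50.5 CPM in OIR and 23.1 to 29.7 CPM in normal libraries, so the 2 lists are not separate signals. The collagen gene Col1a1 was 10.9-fold higher in OIR. The defining fibroblast gene Dcn was at 0.646 to 1.36 CPM in OIR and 0.182 to 1.38 CPM in normal libraries, and Lum had counts too low to be tested. Eng, Acvrl1, Tgfbr2 and Tgfb1 thus rose in libraries in which markers of several cell types also rose, and the part of cell numbers in these rises was not tested.

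To place the members beside the endothelial signal, each was divided by the summed CPM of the endothelial junction genes Cdh5 and Pecam1 in the same library. For Eng this ratio was 0.838, 0.925 and 0.795 in OIR and 0.614, 0.793 and 0.738 in normal libraries, so every OIR ratio was above every normal one, OIR 3 and Normal 2 nearly touching. For Acvrl1 the ratios overlapped (0.194, 0.226 and 0.193 in OIR, 0.220, 0.301 and 0.233 in normal libraries), and for Tgfbr2 they were lower in OIR (0.224, 0.199 and 0.212, against 0.289, 0.321 and 0.281). Tgfb1 had ratios of 0.164, 0.169 and 0.134 in OIR and 0.102, 0.0930 and 0.0927 in normal libraries, and Fstl3 of 0.0352, 0.0391 and 0.0373 in OIR and 0.0178, 0.0211 and 0.0260 in normal libraries, with every OIR value higher. Id1 had 0.171, 0.181 and 0.181 in OIR and 0.258, 0.321 and 0.283 in normal libraries, with every OIR value lower. These 2 genes were chosen after the values were seen, and the direction of the ratio turned with the denominator for 4 of the 6 genes. Over each of the 12 listed endothelial markers singly, a set also added after seeing the data, every OIR ratio of Eng was above every normal one with 5 markers, below with 1 (Vwf), and overlapping with 6. The counts above and below were 3 and 6 for Acvrl1, 2 and 8 for Tgfbr2, and 2 and 8 for Id1. Over Kdr, the mean ratio in OIR was 1.72 times that in normal libraries for Tgfbr2 and 1.51 times for Id1, and over Vwf it was 0.824 times for Eng. Kdr itself hardly changed (0.0055 on the log2 scale), so a ratio over it repeats the gene's own fold change. For Tgfbr2 and Id1, the 2 markers with higher OIR ratios were Kdr and Tek, the markers that did not rise. Tgfb1 was above with 9 markers and below with 0, and Fstl3 above with 8 and below with 0, with overlap for the rest. No ratio was taken over the mural or microglial markers, of which 8 of 9 and 5 of 9 rose. The part of those cells in the rises of Tgfb1 and Fstl3 was not tested. Over the summed CPM of all 12 endothelial markers, every OIR ratio was above every normal one for Eng, Acvrl1, Tgfbr2, Tgfb1 and Fstl3. With that sum the ratios of Id1 overlapped. Kdr, which hardly changed, made up much of the sum, with 234 to 254 of 410 to 478 CPM in normal libraries. The ratios are a description without a test, and for Eng, Acvrl1, Tgfbr2 and Id1 their direction depended on the denominator.

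**Figure D3:**
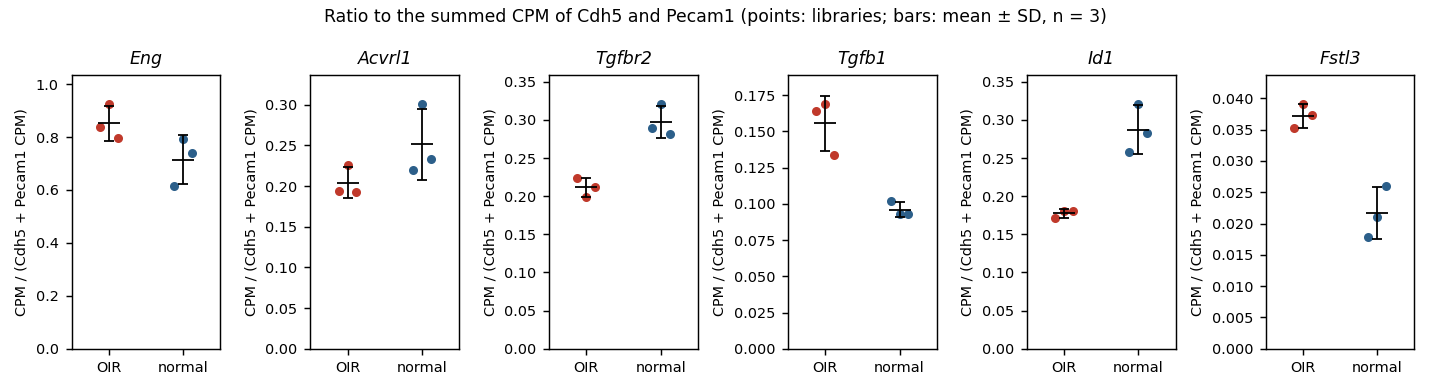
Ratio of the CPM of 6 genes to the summed CPM of Cdh5 and Pecam1 in each library, OIR left of normal, with the mean ± SD of 3 libraries as bars and each axis starting at 0. With this denominator the ratios of Eng, Tgfb1 and Fstl3 are higher in OIR libraries, those of Tgfbr2 and Id1 lower, and those of Acvrl1 overlap; with other listed endothelial markers the directions of Eng, Acvrl1, Tgfbr2 and Id1 turn.

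The receptor-regulated Smads of the BMP branch changed in opposite directions. Smad1 had 42.2, 49 and 44.8 CPM in OIR libraries, against 36.3, 36.7 and 31.9 CPM in normal libraries, and rose by 0.37 on the log2 scale (SE 0.088, edgeR adjusted p = 0.0131). Smad9, the least abundant of the 3, had 8.19, 7.90 and 8.81 CPM in OIR and 12.5, 12 and 14.3 CPM in normal libraries, a log2 change of −0.64 (SE 0.13, edgeR adjusted p = 0.00658). In both genes the groups were apart. The rise of Smad1 missed the threshold without OIR 2 (0.31, adjusted p = 0.0798) and without Normal 3 (0.31, adjusted p = 0.0652), while Smad9 passed without any single library. Smad5, the most abundant BMP Smad per length (14.5 ± 0.843 RPKM in OIR and 13.6 ± 1.31 RPKM in normal retina, SD, n = 3), had a log2 change of 0.090 and overlapping groups. Of the summed RPKM of the 3, Smad9 held 6.67 ± 0.571% in OIR and 11.1 ± 0.802% in normal libraries.

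Smad2 and Smad3, which carry TGF-beta and activin signals, had log2 changes of −0.088 and 0.21 that did not pass, and Smad3 was higher in each OIR library than in any normal one. Smad4, the shared partner of the receptor-regulated Smads, had 83.2, 78.2 and 78.6 CPM in OIR and 79.8, 78.4 and 86.4 CPM in normal libraries, with groups that overlapped and a log2 change of −0.027. Smad7, an inhibitory Smad that is itself induced by TGF-beta and blocks its receptors, had 21.6, 25.4 and 21.7 CPM in OIR, against 15.8, 18.1 and 14.7 CPM in normal libraries. It rose by 0.50 on the log2 scale with separate groups (SE 0.12, edgeR adjusted p = 0.0159), and missed the threshold without OIR 2 (0.41, adjusted p = 0.0753) or Normal 3 (0.43, adjusted p = 0.0721). Smad6, the inhibitory Smad of the BMP branch, was low, at 4.54 to 6.05 CPM in OIR and 2.37, 3.02 and 6.11 CPM in normal libraries. Normal 1 was the highest of all 6 libraries, and the log2 change of 0.46 (edgeR adjusted p = 0.352) became 0.97 and passed when Normal 1 was left out (adjusted p = 0.0174).

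Id genes encode inhibitors of basic helix-loop-helix transcription factors, and Id1, Id2 and Id3 are textbook targets of BMP signals. They did not move together. Id1 had 18.9, 19.9 and 21.4 CPM in OIR, against 14.7, 13.9 and 11.2 CPM in normal libraries, a rise of 0.60 on the log2 scale (SE 0.13, edgeR adjusted p = 0.00881). Id2 had 12.3, 13.3 and 19.2 CPM in OIR and 24.8, 21.6 and 23.1 CPM in normal libraries, a log2 change of −0.63 (SE 0.16, edgeR adjusted p = 0.0196). The groups were apart in both genes, with OIR 3 the closest to normal for Id2. Id1 passed without any single library, whereas Id2 missed the threshold without OIR 1 (−0.51, adjusted p = 0.0809), OIR 2 (−0.56, adjusted p = 0.077) or Normal 3 (−0.64, adjusted p = 0.0726). Id3 and Id4 had overlapping groups and log2 changes of 0.031 and −0.077.

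Per length, Id3 and Id4 were the highest of the Id genes and differed by less than their spread, at 20.3 ± 1.09 and 19.8 ± 0.928 RPKM in OIR and 19.8 ± 2.38 and 20.9 ± 0.812 RPKM in normal retina (SD, n = 3). Id1 had 17.3 ± 1.07 RPKM in OIR and 11.4 ± 1.59 RPKM in normal retina, and Id2 had 6.12 ± 1.54 RPKM in OIR and 9.5 ± 0.659 RPKM in normal retina. Id1 thus held 27.3 ± 0.573% of the summed RPKM of the Id genes in OIR and 18.5 ± 1.74% in normal libraries, and Id2 9.57 ± 1.68% in OIR and 15.4 ± 0.796% in normal libraries. Id1 was more than 2-fold above Id2 in every OIR library and less than 2-fold above it in every normal library. Of 9 Müller glia markers 5 were lower and 2 higher in the same OIR libraries, with summed CPM of 3608 to 4330 in OIR and 4566 to 5153 in normal libraries, and the part of Müller glia RNA in the fall of Id2 was not tested.

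**Figure D4:**
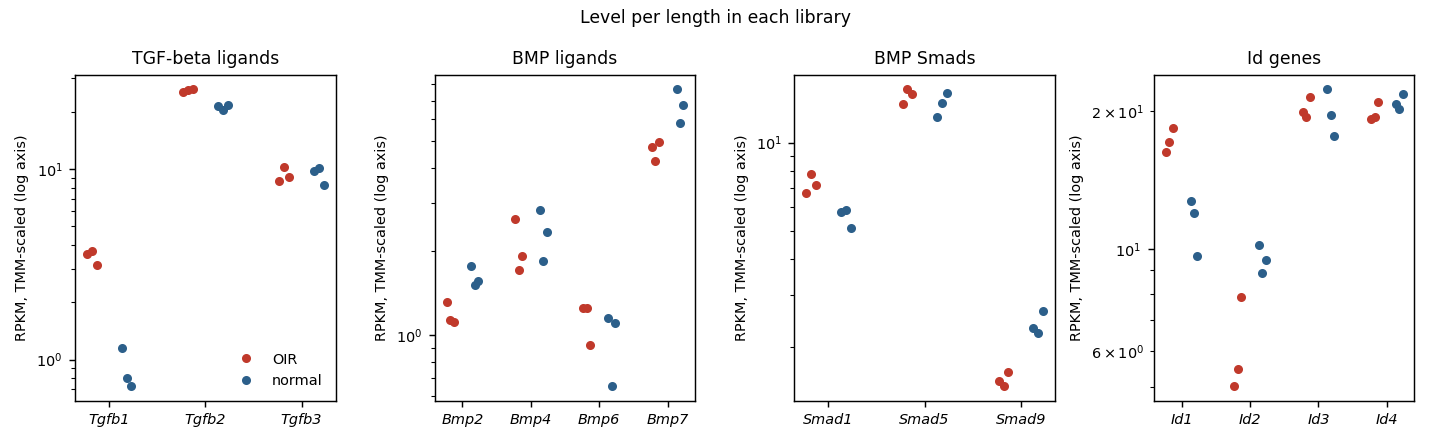
RPKM in each library, on log axes, for the TGF-beta ligands, the BMP ligands, the BMP Smads and the Id genes, with OIR points left of normal points for each gene. Tgfb1 is the lowest TGF-beta ligand in both groups, Bmp7 the highest BMP ligand, and Id1 and Id2 lie farther apart in OIR than in normal libraries.

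Of the 6 extracellular antagonists 2 rose, Fstl3 and Fstl1. Fstl3 (ENSMUSG00000020325, chromosome 10, 79777272 to 79782630, plus strand, mm10), a secreted binder of activins and myostatin, had 66, 73 and 75 counts in the OIR libraries and 17, 15 and 16 counts in the normal libraries. This is 3.89, 4.30 and 4.41 CPM in OIR, against 1.02, 0.912 and 1.03 CPM in normal retina, a 4.24-fold difference with a log2 change of 2.08 (SE 0.24, edgeR adjusted p = 0.000203). It was the largest change of the 49 genes, in a gene with few counts, and it lay between 2.03 and 2.13 without any single library. Fst, which encodes follistatin, another activin binder, had 1.47, 2.89 and 1.88 CPM in OIR and 1.08, 1.03 and 1.03 CPM in normal libraries. All OIR values were higher, but Fst did not pass (log2 change 0.99, SE 0.34, edgeR adjusted p = 0.0643).

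Fstl1, an abundant follistatin-like glycoprotein that can bind BMP4, had 105, 103 and 120 CPM in OIR, against 95.7, 69.8 and 80.2 CPM in normal libraries, a log2 change of 0.42 (SE 0.11, edgeR adjusted p = 0.0244). The groups were apart, with OIR 3, the library rich in lens RNA, the highest. Fstl1 missed the threshold without OIR 1 (0.44, adjusted p = 0.0564), OIR 2 (0.45, adjusted p = 0.0538), OIR 3 (0.33, adjusted p = 0.0797), Normal 2 (0.31, adjusted p = 0.06) or Normal 3 (0.40, adjusted p = 0.106). The BMP antagonists Nog, Grem1 and Chrd were low, at 0.646 to 4.54 CPM in OIR and 0.836 to 3.73 CPM in normal libraries, had overlapping groups, and their log2 changes of −0.45, 0.34 and −0.22 did not pass.

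Of the 6 membrane or nuclear inhibitors, a set that leaves out the inhibitory Smads, 1 rose: Tgif1, a homeodomain co-repressor of Smad2 and Smad3 targets. It had 4.36, 9.20 and 6.93 CPM in OIR and 3.06, 3.53 and 3.47 CPM in normal libraries, a 2.04-fold difference (log2 change 1.03, SE 0.26, edgeR adjusted p = 0.0189). The OIR libraries were all higher but spread over a 2-fold range, and Tgif1 missed the threshold without OIR 2 (0.74, adjusted p = 0.0972) or Normal 3 (1.05, adjusted p = 0.072). The co-repressors Ski and Skil, the ubiquitin ligases Smurf1 and Smurf2, which mark Smads and receptors for degradation, and the decoy receptor Bambi had log2 changes of 0.21, 0.19, 0.17, 0.090 and 0.14. Ski, Skil and Smurf1 had their lowest OIR value above their highest normal value without passing (edgeR adjusted p = 0.114, 0.154 and 0.13). Ski passed with library totals alone as scaling (0.25, adjusted p = 0.048) and without Normal 1 (0.27, adjusted p = 0.0329).

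The rest of the pathway was read from a list of 80 further genes, of which 78 had a row and 59 were tested. Of these 15 rose and 9 fell, or 25.4% and 15.3%, against 11.1% and 8.73% of all genes tested, with a median log2 change of 0.16. This list too was chosen with earlier results of these data known, so its shares are a description. The count that fell was less stable than the count that rose: it was 4 without Normal 3, 5 without OIR 2, 5 with the sex covariate and 14 without a filter on low counts. The genes of the latent complex and of ligand release and activation changed most often, 6 of 11 rising and 3 falling. Lrrc32, which encodes GARP, a membrane anchor of latent TGF-beta1, had 14.6, 16.8 and 14.5 CPM in OIR and 2.58, 2.68 and 1.74 CPM in normal libraries, a log2 change of 2.70 (SE 0.18). Bmp1, a procollagen C-proteinase that also cleaves BMP antagonists and latent TGF-beta binding protein, had 93.4, 80.7 and 72.1 CPM in OIR and 23.7, 26.9 and 23.9 CPM in normal libraries, a log2 change of 1.72 (SE 0.11). Thbs1, thrombospondin 1, an activator of latent TGF-beta, had 44.7, 81.3 and 63.0 CPM in OIR and 26.4, 26.3 and 23.0 CPM in normal libraries, a log2 change of 1.32 (SE 0.18). All 3 passed without any single library. The genes that fell in this group, the Bmp1 relative Tll1 and the fibrillins Fbn1 and Fbn2, changed by −0.60, −0.32 and −0.51. Tll1 missed the threshold without OIR 1 (−0.58), OIR 2 (−0.53) or Normal 3 (−0.47), Fbn1 without OIR 2 (−0.32), OIR 3 (−0.26), Normal 1 (−0.25) or Normal 3 (−0.33), and Fbn2 without OIR 2 (−0.50), OIR 3 (−0.40), Normal 1 (−0.46) or Normal 3 (−0.44). The OIR and normal values of Fbn2 overlapped.

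Textbook targets rose in 6 of 13 tested cases and 1 fell, or 46.2% and 7.69%, against 11.1% and 8.73% of all genes tested. The groups did not overlap in 69.2% of them, against 36.8% of all genes tested. OIR was above in 6 and below in 3, against 18.7% and 18.1% of all genes tested. Ctgf, a secreted matrix-associated protein, had 61.6, 90 and 102 CPM in OIR and 14, 14.7 and 12.7 CPM in normal libraries, a log2 change of 2.61 (SE 0.17). The cell cycle inhibitor Cdkn1a, which other pathways also induce, had 24.2, 35.1 and 28.7 CPM in OIR and 6.17, 6.69 and 6.94 CPM in normal libraries, a log2 change of 2.15 (SE 0.15). Both had all OIR values above all normal values and passed without any single library. Tsc22d1, which fell by 0.31 on the log2 scale, missed the threshold without OIR 1 (−0.30), OIR 2 (−0.28), Normal 1 (−0.25) or Normal 3 (−0.28).

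Of 11 further antagonists tested 1 rose and 3 fell, or 9.09% and 27.3%, against 11.1% and 8.73% of all genes tested. The protease gene Htra1 had 185, 180 and 192 CPM in OIR and 144, 130 and 119 CPM in normal libraries, a log2 change of 0.51. Among those that fell, Vwc2, a secreted BMP antagonist, and the follistatin-like gene Fstl5 changed by −0.60 and −0.43, and Vwc2 missed the threshold without Normal 3 (−0.53, adjusted p = 0.0504). Among 10 further ligands 1 rose and 1 fell: Inha, the inhibin alpha subunit, by 0.45, not passing without OIR 1 (0.43), OIR 2 (0.36) or Normal 3 (0.40), and Gdf11, a ligand that limits retinal ganglion cell number in development, with a log2 change of −0.39, passing without Normal 2 but not without any other library (−0.46 without OIR 1, −0.30 without OIR 2, −0.44 without OIR 3, −0.30 without Normal 1 and −0.38 without Normal 3). Of 3 further receptor genes 1 rose, the BMP co-receptor Rgma, by 0.45, not passing without OIR 1 (0.46), OIR 2 (0.38) or Normal 3 (0.43). Of 11 further intracellular regulators 1 fell, the kinase gene Hipk2, with a log2 change of −0.41.

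**Figure D5:**
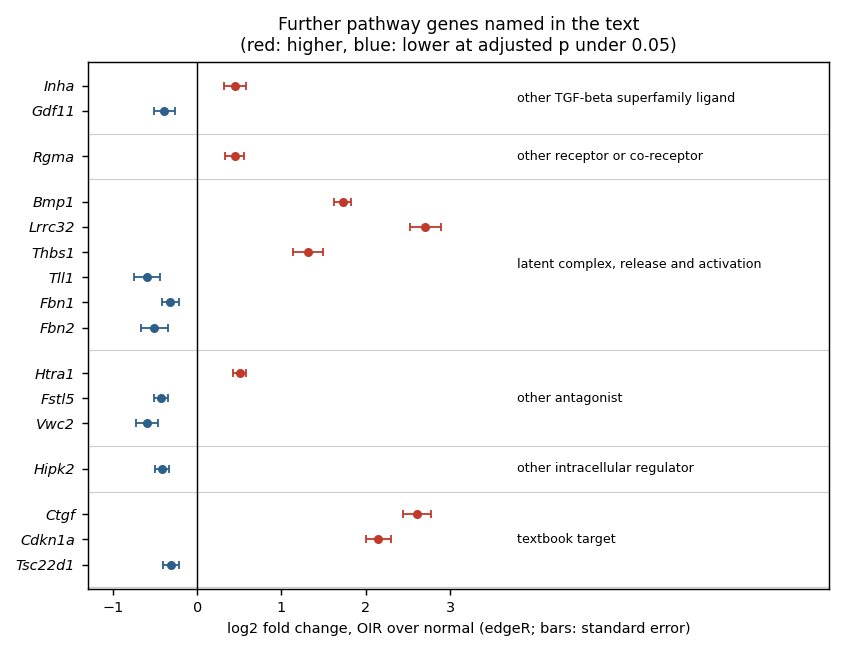
Log2 fold change of OIR over normal retina, with standard errors, for the further pathway genes named in the text that passed the test. Lrrc32, Ctgf and Cdkn1a lie farthest to the right, at 2.70, 2.61 and 2.15, and Tll1 and Vwc2 farthest to the left, both at −0.60.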

How the data were processed

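The authors deposited unnormalized counts by gene in 6 libraries, beside each gene's length and position. TRIzol extraction and a NEBNext Ultra RNA library kit are stated per the labels' protocols. The submitters' processing notes name the mm10 build, HISAT2 2.0.5, fastp, CASAVA 1.8, DESeq2 1.20.0 and featureCounts 1.5.0-p3. No source used here states the annotation release, the strand setting or the read filters. Columns were matched to samples by OIR, day and number in their names. Every pair of libraries within a group had a chi-square of 7.20 to 23.1 per degree of freedom, above sampling noise, and all were kept.

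Counts were tested with edgeR 4.0.16 in R 4.3.3 (quasi-likelihood, TMM, filterByExpr with minimum count 10 and total 15, no covariate), with Benjamini-Hochberg adjustment over 17108 genes. SE was taken as the size of the log2 change over the root of the F statistic. The test was checked on simulated counts. RPKM divides TMM-scaled CPM by gene length in kilobases. The 49 genes, the further lists and the rule for named genes were chosen with earlier results of these data known. Values in each library are given for members that passed and for the highest of each role without one, and of the further genes up to 3 per list and direction are named, less 2 that are counted but not reported here. Other members' values, and those of Fst, Bmp2, Bmpr2, Tgfbr3, Smad6, Pmepa1 and Ldlrad4, were picked after they were seen. Alternatives were DESeq2 1.42.0, limma-voom (limma 3.58.1), other scalings and filters, a replicate block, a sex covariate, each library left out in turn, and 0.01 as the threshold. Promoters are from RefSeq (GRCm38.p6).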

Additional observations from a re-analysis of the deposited data

How the results depend on the processing

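The same 17 of the 49 genes were called by DESeq2 and limma-voom, with median-of-ratios size factors, without a filter, with the stricter filter (at least 1 CPM in 3 libraries), and with the sex covariate. Library totals alone added Ski. With the replicate number as a block, 13 genes were higher and 4 lower, the same 17. Same-numbered samples had correlations of 0.061, −0.17 and 0.086, and not every sample correlated best with its own number. These correlations showed no pairing by number, but with 3 samples per group they cannot exclude it. Of the further genes named as passing, Fbn2 alone missed the threshold with the block (−0.51, adjusted p = 0.0603). Fbn2 also missed it with library totals (−0.46), the stricter filter (−0.50) and the sex covariate (−0.44), as did Fbn1 and Gdf11 with library totals (−0.27 and −0.35) and the sex covariate (−0.29 and −0.39), and Tsc22d1 with the sex covariate (−0.28). At an adjusted p under 0.01, 8 members were higher and 2 lower, and among the further genes 3 were lower; over all genes 1116 were higher and 647 lower. Leaving out each library gave 8 to 16 members higher and 3 to 4 lower, 12 to 18 further genes higher and 4 to 10 lower, and 1237 to 2097 genes higher and 761 to 1734 lower over the whole table. Further genes that were lower numbered 14 without a filter and 5 with the sex covariate, against 9. The median log2 change of all genes lay between 0.0016 and 0.056 under these settings.

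The genes that changed sign passed under none of these settings. Bmpr1a became 0.0031 with limma-voom, 0.043 with library totals, 0.0015 with the stricter filter, 0.0025 with the replicate block and 0.0011 with the sex covariate, and library totals gave 0.017 for Smad4 and 0.026 for Tgfb3. Without single libraries the log2 change lay between −0.066 and 0.083 for Acvr1, −0.085 and 0.0019 for Acvr1b, −0.016 and 0.21 for Acvr2a, −0.049 and 0.075 for Bmpr1a, −0.88 and 0.028 for Chrd, −0.051 and 0.12 for Id3, −0.016 and 0.36 for Inhba, −0.050 and 0.10 for Ltbp3, −0.069 and 0.17 for Ltbp4, −0.060 and 0.015 for Smad4 and −0.10 and 0.036 for Tgfb3. The cause of these changes was not tested. Depth limits the low genes most: Nog, Grem1, Chrd, Fst and Fstl3 had 11 to 77 counts per library.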
